A study of Mus musculus with 3 samples.

Results

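The microtubule network is shaped by proteins that bind along the polymer, ride on its growing plus end, hold or create its minus end, or cut and dismantle it. The transcripts of 59 genes for such proteins are described here, out of 18038 genes in the deposited table. They were taken by symbol from a written list, drawn up with earlier results of these data known, and all 59 were found in the table. By role they form 4 groups. Of these, 26 genes encode proteins that bind along the microtubule wall and are called structural binders here, 13 encode plus-end proteins, 10 encode minus-end and nucleation proteins, and 10 encode severing and destabilising proteins.

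A microtubule is a hollow polymer of tubulin dimers that grows and shrinks mainly at its plus end. Gamma-tubulin complexes start new polymers, end-binding proteins recruit partners to growing tips, severing ATPases pull tubulin out of the wall, and stathmins hold free dimers. In heart muscle, microtubules run between the myofibrils, carry mRNA and membrane cargo, and add to the stiffness of the contracting cell, and the network is known to be rearranged as the cell matures after birth.

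The 3 samples were labelled as heart of wild-type C57BL/6J mice, an inbred laboratory strain, at postnatal day 9. The labels give no treatment, transgene or other genotype. RNA of each sample was sequenced as 1 library, and each sample is called a heart here. The labels number them 1 to 3 and do not say whether they came from separate animals or litters. A p-value here therefore reflects nothing but the scatter of these 3 libraries, part or all of which may be technical. There is 1 group, so genes were compared with each other within hearts, and hearts with each other.

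Library totals were 17766501, 18643408 and 18768094 counts. Levels are given as TPM, transcripts per 1000000, which divides by gene length so that genes can be compared, as mean ± SD over 3 hearts. A gene was called detected at 1 CPM (counts per 1000000) or more in every heart, and 12958 genes (71.8%) were. The labelled tissue was checked with marker genes: 6 of 6 cardiomyocyte genes were detected, with summed levels of 79153, 78047 and 81455 TPM in hearts 1, 2 and 3, and 0 of 4 thymus genes. Heart 1 stood apart in 3 of the 4 genes listed for airway club cells, Scgb1a1, Scgb3a1 and Scgb3a2. The 4 summed to 2372 TPM there and to 1.02 and 8.14 TPM in hearts 2 and 3. The other gene of the list, Sftpc, had only 4, 0 and 0 counts in hearts 1, 2 and 3.

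Of the 59 genes, 52 (88.1%) were detected. Together the 59 held 0.226% of all TPM, and the median detected member lay at 18.9 TPM against 19.1 TPM for all detected genes. Levels were uneven: 7 genes stood above 100 TPM, 32 between 10 and 100 TPM and 20 below 10 TPM, and the top 7 held 51.2% of the summed TPM of all 59. These 7 were Map7d1, Stmn1, Map4, Mtus2, Clasp1, Mtus1 and Mapre2, which come from 3 of the role groups. No minus-end or nucleation gene was among them. The 7 genes below the detection minimum were Stmn3, Stmn4, Map7d2, Map6d1, Slain1, Katnal2 and Dcx.

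**Figure D1:**
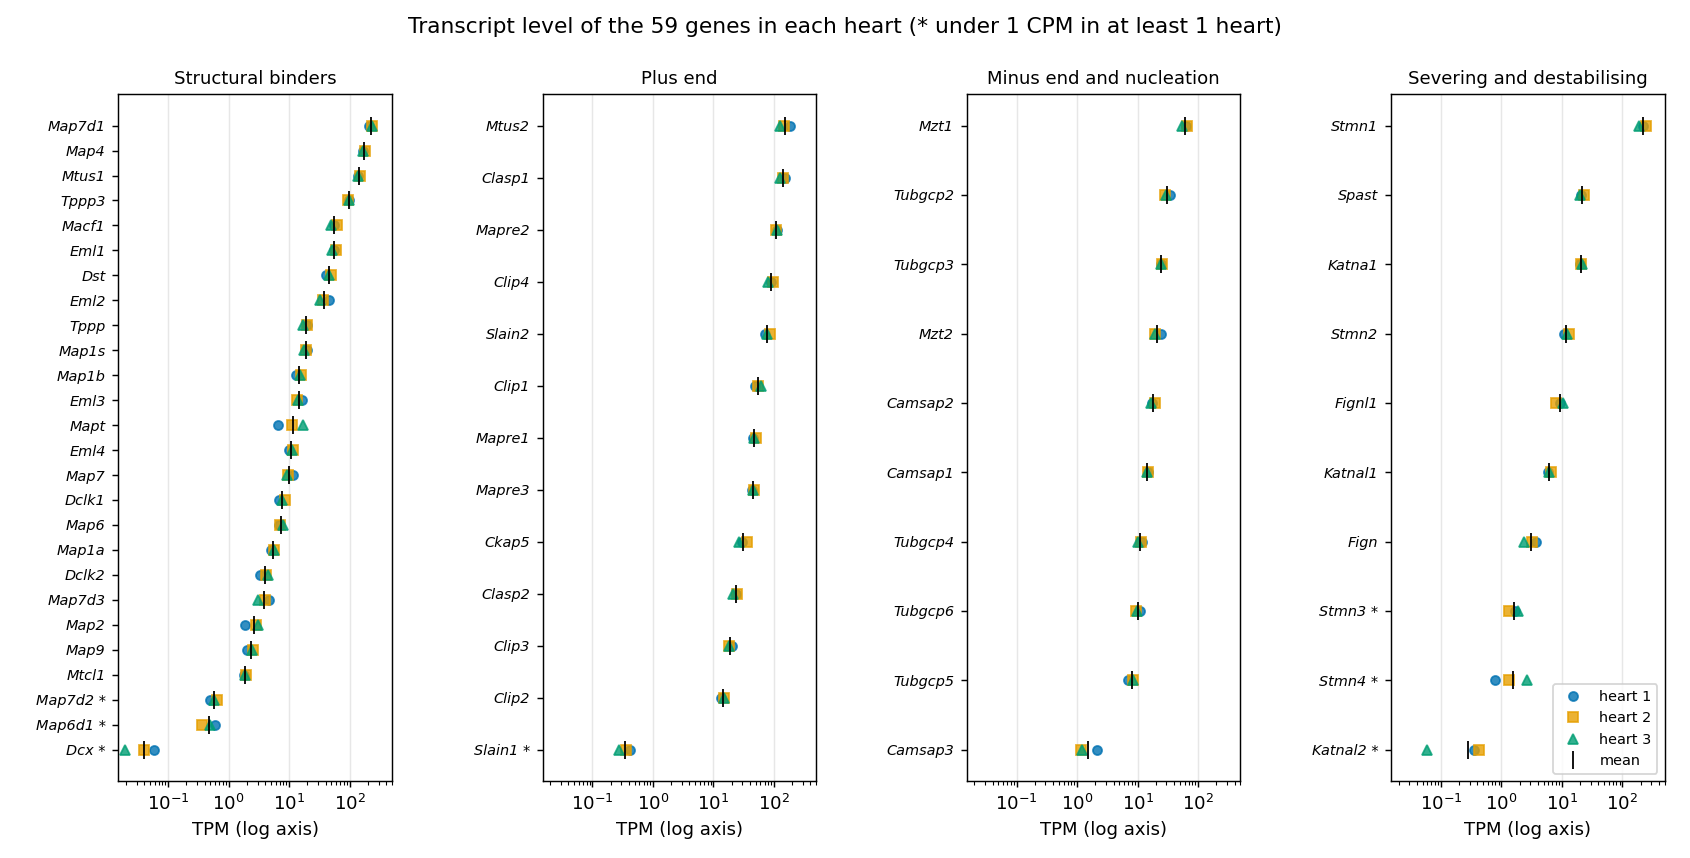
Transcript level of each of the 59 genes in TPM on a log axis, 1 panel per role group, with 1 symbol per heart, a bar at the mean and an asterisk on genes under 1 CPM in at least 1 heart. Structural binders span the widest range, from Dcx at 0.0393 TPM to Map7d1 at 225 TPM, while the 10 minus-end and nucleation genes lie between 1.51 and 61.1 TPM.

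Structural binders summed to 962 ± 29.5 TPM (SD, n = 3), or 42.6% ± 1.65 of the summed TPM of the 59 genes. Plus-end genes summed to 804 ± 44.7 TPM (35.6% ± 0.982). Severing and destabilising genes summed to 293 ± 30.3 TPM (13% ± 0.82), and minus-end and nucleation genes to 201 ± 11.5 TPM (8.88% ± 0.323). The order of the 4 groups was the same in every heart: structural sums were 935, 993 and 958 TPM, plus-end sums 835, 823 and 753 TPM, severing and destabilising sums 297, 322 and 262 TPM, and minus-end sums 211, 203 and 188 TPM. No test was run on these shares, since an exact sign-flip test over 3 hearts cannot give a p below 0.25. Counted per read rather than per length, the severing and destabilising share was 4.52% in place of 13%, and the 3 other shares were 50.3% for structural, 38.5% for plus-end and 6.69% for minus-end genes, so that minus-end genes then stood above the severing and destabilising ones.

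Genes were compared in 53 pairs by the log2 ratio of their levels per length. Most pairs lay within a family, and some joined different families, such as Map7d1 with Map4 and Stmn1 with Map7d1. Of these, 51 had at least 3 counts for both genes in every heart and were tested with edgeR's quasi-likelihood test, and 46 passed an adjusted p of 0.05. This fit shares 1 estimate of spread over pairs that have genes in common, so its smallest p-values, from 3 hearts, should not be read at face value. With each pair's own spread and 2 residual degrees of freedom in its place, an alternative added after the data were seen, 39 of the 51 passed, all of them among the 46. In 48 of the 51 pairs the same gene had the higher TPM in every heart. Intervals below are 95% intervals of the first fit, and p-values are adjusted over the 51 pairs.

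**Figure D2:**
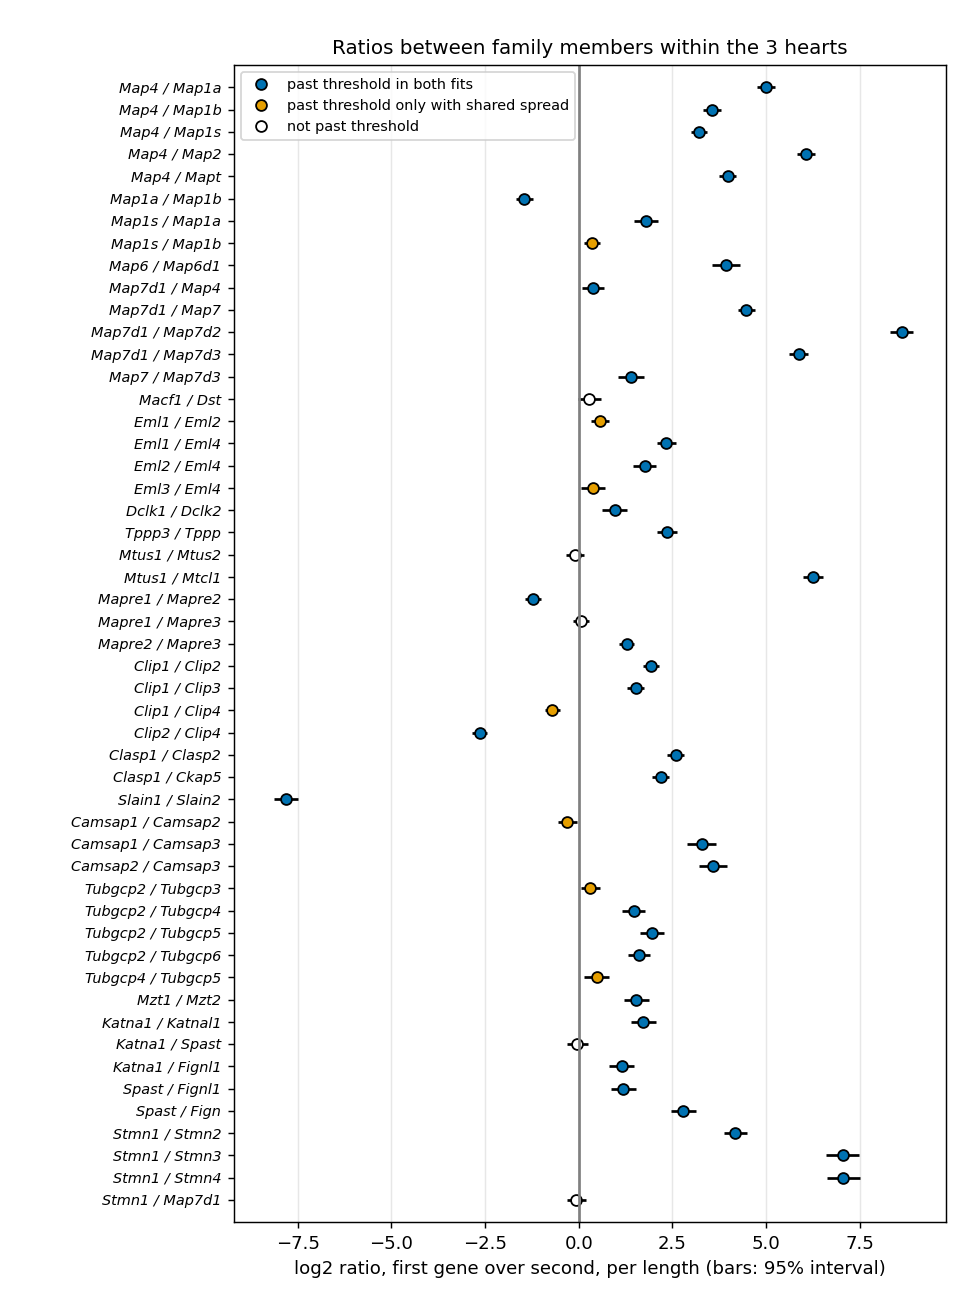
Log2 ratio of the first gene over the second, per length, for the 51 tested pairs, with 95% intervals as bars and the colour showing which fits put the pair past the threshold. The ratios run from -7.80 for Slain1 over Slain2 to 8.62 for Map7d1 over Map7d2, and 5 pairs (open circles) did not pass.

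Map7d1 had the highest mean TPM of the 59 genes and led the MAP7 family, whose proteins bind microtubules and recruit kinesin-1. Its transcript levels were 207, 230 and 238 TPM. Map7, the founding member, stood at 11.4, 9.72 and 9.18 TPM, and the other relatives were lower still, Map7d3 at 4.67, 3.92 and 3.02 TPM and Map7d2 at 0.489, 0.64 and 0.58 TPM. The 4 sets of values did not overlap. Map7d1 exceeded Map7d2 by 8.62 on the log2 scale (interval 8.32 to 8.92), a 393-fold difference per length and the largest of the 51 tested pairs. Map7d2 rested on 15, 19 and 19 counts. Its excess over Map7d3 was 5.87 and over Map7 4.48, and all 3 ratios passed with the pair's own spread too (edgeR adjusted p = 9.89e-05, 0.0019 and 0.00191). The deposited positions place Map7d1 at chr4:126232167-126256459 and Map7d2 at chrX:159414524-159498958.

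The tau family, whose members share the tubulin-binding repeat, was led by Map4, its member found in most tissues. Map4 stood at 168, 180 and 169 TPM, Mapt, which encodes tau, at 6.43, 11.3 and 17.1 TPM, and Map2, best known from dendrites, at 1.86, 2.86 and 3.07 TPM. Map4 over Map2 was 6.06 on the log2 scale (interval 5.82 to 6.31), a 66.8-fold difference. The deposited Pfam annotation gives the tau repeat (PF00418) to 3 genes of the table, and these are the same 3, so the comparison covers every gene annotated with it. Map7d1 exceeded Map4 by only 0.38 (0.08 to 0.69; edgeR adjusted p = 0.0166). That ratio did not pass without heart 1 (edgeR adjusted p = 0.0637) or without heart 2 (0.234), ran from -0.32 to 0.54 over 10 alternatives with adjusted p from 0.000786 to 0.234, and was negative when counts were not divided by length.

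In the MAP1 family, large proteins best known from neurons, Map1s and Map1b lay close together and Map1a lower per length. Map1s, the short and broadly expressed relative, had 19.4, 18.9 and 17.7 TPM, Map1b 13.1, 15.9 and 14.9 TPM, and Map1a 5, 5.54 and 5.57 TPM. Map1a was below Map1b (log2 -1.45, interval -1.67 to -1.22) and below Map1s, by a log2 ratio of Map1s to Map1a of 1.80 that was 0.01 in CPM (edgeR adjusted p = 0.938, the highest of 10 alternatives, from 3.46e-36). The step from Map1s to Map1b was 0.35 (0.13 to 0.57) and turned to -0.17 when the longest annotated transcript supplied the length and to -1.52 with no length at all, since Map1s has an implied length of 3210 bases and Map1b of 11784 bases. It did not pass with the pair's own spread (edgeR adjusted p = 0.0916, within a range of 3.36e-24 to 0.127 over 10 alternatives). The order of these 2 genes thus changed with the length used.

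The spectraplakins Macf1 and Dst, giant proteins that tie microtubules to actin, were not separated by the test. Macf1 stood at 55, 61.8 and 49 TPM and Dst at 41, 49.3 and 45.6 TPM. Macf1 was the higher in every heart, but the ranges overlap, with the lowest Macf1 value just under the highest Dst value. Their ratio of 0.28 had an interval of -0.02 to 0.59 and did not pass (edgeR adjusted p = 0.0754). It passed in 3 of 10 alternatives, with adjusted p between 0.000446 and 0.408. The interval leaves room for Macf1 to be up to 0.59 higher on the log2 scale. Both genes have large numbers of counts, from 6864 to 10136 per heart, and their implied lengths are 17556 and 18645 bases.

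The EMAP-like genes encode WD-repeat proteins on the microtubule wall. Eml1 had 55.4, 58.7 and 51.3 TPM, Eml2 44.9, 35.7 and 31.7 TPM, Eml3 16, 13.3 and 13.8 TPM and Eml4 10.1, 11.7 and 11 TPM. In each heart they kept the order of their numbers, and no heart's value of one gene reached the range of the next. Eml1 over Eml4 was 2.33 (2.08 to 2.59). The neighbouring steps were smaller: Eml1 over Eml2 was 0.57 and Eml3 over Eml4 was 0.39, and neither passed with the pair's own spread (edgeR adjusted p = 0.0632 and 0.129, within ranges over 10 alternatives of 2.8e-20 to 0.0632 and of 0.00641 to 0.16). Without length correction the ratio of Eml3 to Eml4 was -0.34.

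In the TPPP family, small tubulin polymerisation-promoting proteins and the only 2 genes annotated with the p25-alpha domain, Tppp3 led at 96.6, 93 and 98.9 TPM. Tppp, first found in brain, had 19.4, 19.9 and 17.1 TPM. Tppp3 over Tppp was 2.35 (2.09 to 2.62), or 5.11-fold. That difference is one of level per length: in CPM the pair differed by only 0.10 on the log2 scale, since the implied lengths are 1048 and 5004 bases, and this value did not pass (edgeR adjusted p = 0.473, the highest of 10 alternatives, which began at 3.13e-60).

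Mtus1, which encodes a microtubule-binding angiotensin receptor partner, had 138, 146 and 135 TPM, and Mtcl1, a microtubule crosslinker, 1.76, 1.9 and 1.84 TPM. Their log2 ratio was 6.25 (6.00 to 6.51), with an SD of 0.0464 between hearts. Mtcl1 rested on 117, 137 and 134 counts, so counting error limits how far this SD can be read as constancy. Map6, whose protein protects microtubules from cold, had 6.88, 7.18 and 7.91 TPM, against 0.587, 0.36 and 0.483 TPM for its relative Map6d1, with 17, 11 and 15 counts. The ranges of the pair did not overlap. Map9, a spindle-associated binder, lay at 2.35 ± 0.279 TPM. In the doublecortin family the kinases Dclk1 and Dclk2 were detected, at 6.78, 8.68 and 7.54 TPM and at 3.93 ± 0.605 TPM, with a log2 ratio of 0.96 (0.62 to 1.30).

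Dcx, the doublecortin of migrating neurons, was the lowest of the 59 genes, with 5, 4 and 2 counts. As 3 counts are the limit that a count of 0 allows, 0.169, 0.161 and 0.16 CPM in the 3 libraries, Dcx sat at the edge of what this depth can show, and its pair with Dclk1 was not tested. Such limits cover counting error only.

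The end-binding family tracks growing plus ends and recruits other proteins there. Mapre2 led with 111, 109 and 111 TPM, Mapre1 had 45.3, 49.8 and 46.7 TPM and Mapre3 43.3, 46.2 and 45.6 TPM. Mapre2 lay clear of the others and those 2 overlapped. Mapre1 over Mapre3 was 0.07 and did not pass (edgeR adjusted p = 0.522), but passed at 0.50 with longest transcript lengths (5.95e-06) and at 2.09 in CPM (9.34e-36, in a range over 10 alternatives up to 0.794). The family sum was 199, 205 and 203 TPM, a spread of 2.68 TPM (SD) about 202 TPM and the smallest relative to level among the 15 family sums. Mapre2 over Mapre3 was 1.29 (1.09 to 1.49; edgeR adjusted p = 0.00223 with the pair's own spread). The table annotates the EB1-like C-terminal motif (PF03271) in 3 genes, all of them in this family, and 5 of the 59 genes share the calponin homology domain, the 3 end-binding genes and the 2 spectraplakins.

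The CAP-Gly linkers tether the plus end to membranes and to dynein partners. Clip4 was highest at 89.9, 97.2 and 80.4 TPM, followed by Clip1, the founding member, at 48.8, 54.5 and 60.4 TPM. Clip3 had 20.6, 17.9 and 18.2 TPM and Clip2 13.2, 15 and 14.7 TPM, so that the 4 ranges did not overlap. Clip2 stood below Clip4 by 2.64 on the log2 scale in size (log2 ratio -2.64, interval -2.84 to -2.44). Clip1 over Clip4 was -0.71 (-0.91 to -0.51) and fell short with the pair's own spread (edgeR adjusted p = 0.0535) and in CPM, where the ratio was -0.06 (edgeR adjusted p = 0.549, the highest of 10 alternatives, from 3.88e-15). Clip1 had its highest level in heart 3 while Clip4 had its lowest there.

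The factors that act on growth itself were led by Mtus2, a plus-end tracking protein, and Clasp1, which rescues shrinking microtubules. Mtus2 had 185, 146 and 125 TPM and Clasp1 152, 142 and 126 TPM. Both were highest in heart 1 and lowest in heart 3. Ckap5, the microtubule polymerase, stood at 30, 35.3 and 26.9 TPM and Clasp2 at 23.4, 24.9 and 21.2 TPM. Clasp1 exceeded Ckap5 by 2.19 (1.96 to 2.42), or 4.57-fold. Mtus2 did not differ detectably from its relative Mtus1 (log2 of Mtus1 over Mtus2 -0.10, interval -0.35 to 0.14; edgeR adjusted p = 0.434), and the order of the 2 genes changed between hearts.

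The Slain genes encode partners that bring the polymerase to the end-binding proteins, and they are the only 2 genes annotated with the SLAIN motif family. Slain2 had 71.8, 85.8 and 76.6 TPM, from 2790, 3437 and 3200 counts. Slain1 had 0.411, 0.36 and 0.271 TPM, from 10, 9 and 8 counts, and was not detected. The log2 ratio of Slain1 to Slain2 was -7.80 (-8.12 to -7.48; edgeR adjusted p = 0.000487 with the pair's own spread). This was the widest gap among the tested pairs of the plus-end group. Of the exon bases of Slain2, 10.5% overlap a gene on the opposite strand, and the strand setting of the counting is not given in the sources used here.

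Promoter sequences are shown for the pair with the widest gap, Map7d1 and Map7d2, for the low member of the next widest, Slain1, and for the lowest gene, Dcx, to set genes near the limit of detection beside the highest gene. They come from RefSeq, build GRCm38.p6, and run 5′ to 3′ on the gene's strand. Each begins 250 bases before the start in the RefSeq promoter table and stops before the first base of a GENCODE M21 exon, of the whole RefSeq gene or of the gene as deposited. None is printed for Slain2, since the deposited gene begins before its window. Capitals mark CG dinucleotides. The stretches are chr4:126256460-126256569 on the minus strand for Map7d1 (110 bases), chrX:159414322-159414491 on the plus strand for Map7d2 (170 bases), chr14:103649978-103650075 on the plus strand for Slain1 (98 bases) and chrX:143933397-143933469 on the minus strand for Dcx (73 bases).
Map7d1: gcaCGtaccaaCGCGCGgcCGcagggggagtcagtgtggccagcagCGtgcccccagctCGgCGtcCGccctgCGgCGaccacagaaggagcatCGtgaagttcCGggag
Map7d2: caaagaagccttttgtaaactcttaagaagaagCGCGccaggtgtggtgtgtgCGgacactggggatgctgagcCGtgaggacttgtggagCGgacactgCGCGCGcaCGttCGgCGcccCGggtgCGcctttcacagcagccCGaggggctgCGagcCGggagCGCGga
Slain1: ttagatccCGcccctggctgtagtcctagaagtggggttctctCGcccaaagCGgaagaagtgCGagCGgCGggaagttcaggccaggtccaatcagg
Dcx: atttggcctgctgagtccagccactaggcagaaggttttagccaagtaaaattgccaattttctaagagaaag

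In the pairs with the widest gaps, chosen after their levels were seen, the low member was not poor in CG. The printed stretches held 13 CG dinucleotides for Map7d1, 18 for Map7d2, 6 for Slain1 and 0 for Dcx. Over the full windows of 250 bases, which can run into a longer transcript of the same gene, Map7d2 held 32 CG dinucleotides against 25 for Map7d1, and Slain1 held 20 against 26 for Slain2, while the levels differed 393-fold in the first pair and by a log2 ratio of -7.80 in the second. Dcx held 3. Windows were found for 45 of the 59 genes, with a median of 20 CG dinucleotides (range 2 to 47). The median was 13 over the 14128 genes of the table that had a window. It was 16 over the detected genes among them and 4 over those not detected. Within the members it was 20 over the 40 detected and 11 over the 5 not detected, so these pairs do not stand for genes of low level in general. The GC box was searched as GGGCGG and as CCGCCC on the other strand. It was present in 25 of the 45 (55.6%) and in 51.3% of all windows. Among detected genes alone it was present in 60% of the members and in 59.5% of the windows. TATAAA or its reverse complement TTTATA was present in 4 (8.89%) and in 8.3% of all windows. Among detected genes alone the shares were 7.5% of the members and 6.28% of the windows. These are counts of letters in a window, and no binding was measured.

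At the minus end, Camsap2 and Camsap1, whose proteins bind free minus ends, stood close together at 17.4, 19.7 and 16.6 TPM and at 14.8, 14.7 and 14.1 TPM. Their ranges did not overlap, but the ratio of Camsap1 to Camsap2 was small at -0.30 (-0.54 to -0.05) and did not pass without heart 2 (edgeR adjusted p = 0.288), without heart 3 (0.0793) or with the pair's own spread (0.0671), in a range over 10 alternatives from 0.00309. Camsap1 had the lowest coefficient of variation (CV, SD over mean of CPM) of the detected genes of the 59, at 0.444%. With 822, 857 and 861 counts, counting error limits how far this value can be read as constancy. Camsap3, best known from epithelia, had 2.15, 1.16 and 1.22 TPM, and Camsap2 exceeded it by 3.59 (3.20 to 3.97), or 12-fold. Camsap3 was higher in heart 1 than in the others (82 counts against 44 and 49), the heart with the airway genes, and 9.32% of its exon bases overlap a gene on the opposite strand. It did not pass the test of variation between hearts given below (edgeR adjusted p = 1), and the part of the airway genes in it was not tested.

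Of the gamma-tubulin complex, all 5 ring proteins annotated with its C-terminal domain (PF04130) and both MOZART genes were detected. Tubgcp2 and Tubgcp3, which form the core complex with gamma-tubulin, had 34.6, 28.8 and 29.2 TPM and 24.4, 25.6 and 24.4 TPM. The ring proteins Tubgcp4, Tubgcp6 and Tubgcp5 were lower, at 11.1 ± 0.797 and 10.1 ± 0.669 TPM for the first pair and 7.02, 8.36 and 8.43 TPM for Tubgcp5. Against Tubgcp2 they were lower by 1.48 (1.17 to 1.78), 1.61 (1.33 to 1.90) and 1.96 (1.63 to 2.28) on the log2 scale, and each of these ratios passed in both fits. Tubgcp2 over Tubgcp3, at 0.31 (0.05 to 0.58), passed in 5 of 10 alternatives only, with edgeR adjusted p from 1.83e-09 to 0.451, and was lost without any 1 of the hearts (0.0779, 0.0821 and 0.109).

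Tubgcp4 over Tubgcp5 was 0.48 (0.15 to 0.81) and was lost without heart 1 (edgeR adjusted p = 0.0829) and with the pair's own spread (0.0894, in a range over 10 alternatives from 0.000695). The level of Tubgcp4 is uncertain, since 26.1% of its exon bases overlap genes on the opposite strand. Mzt1, a small protein that joins the complex to its anchors, led the group at 63.5, 64.8 and 54.9 TPM. Mzt2, its partner, had 24.5, 19.3 and 19.3 TPM, and Mzt1 over Mzt2 was 1.54 (1.21 to 1.87), or 2.91-fold.

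The 6 severing ATPases summed to 60.6 ± 0.894 TPM, with sums of 59.8, 61.6 and 60.4 TPM in the 3 hearts. Spast, the spastin gene, had 20.7, 22.9 and 19.9 TPM and Katna1, the katanin catalytic subunit, 20, 20.5 and 21.2 TPM. These 2 overlapped, with a log2 ratio of -0.04 (-0.32 to 0.24; edgeR adjusted p = 0.781). In CPM the same pair differed by -1.54, as Katna1 has an implied length of 1669 bases and Spast of 4733. Fignl1, a fidgetin relative known also from DNA repair, had 9.29 ± 1.36 TPM, Katnal1 6.2 ± 0.368 TPM and Fign, fidgetin itself, 3.71, 3.24 and 2.34 TPM. Spast over Fign was 2.79 (2.46 to 3.12). Katnal2 had 6, 7 and 1 counts, was not detected and was not tested.

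The stathmins were carried by 1 gene. Stmn1, which binds free tubulin dimers and is known from dividing cells, had 223, 245 and 185 TPM. Stmn2, a neuronal relative, had 10.8, 13 and 12.1 TPM, and Stmn3 and Stmn4, also known from neurons, rested on 16, 13 and 19 counts and on 9, 14 and 27 counts. Stmn1 exceeded Stmn2 by 4.18 (3.87 to 4.49), or 18.1-fold, Stmn3 by 7.05 (6.61 to 7.48) and Stmn4 by 7.07 (6.64 to 7.51). The stathmin sum was 233 ± 29.8 TPM. Stmn1 held 74% ± 2.92 (SD, n = 3) of the TPM of all severing and destabilising genes, and 45.4% ± 2.67 of their CPM.

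Stmn1 and Map7d1 did not differ detectably, with a log2 ratio of -0.06 (-0.30 to 0.19; edgeR adjusted p = 0.667), and their order differed between hearts: Stmn1 was the higher in hearts 1 and 2 and the lower in heart 3. In CPM the ratio was -1.80 and passed (edgeR adjusted p = 2.51e-25, the lowest of 10 alternatives, which reached 0.751), as the implied lengths are 973 and 3265 bases. Stmn1 and Ckap5 were both highest in heart 2 and lowest in heart 3, as were other members, among them Macf1, Clip4 and Spast. None of these genes passed the test of variation given below. The sum of 5 genes of proliferating cells, 5 of 5 detected and 0 past that test, had this order too, at 175, 214 and 146 TPM. The sum of 5 erythroid genes, 5 of 5 detected and 2 past that test, had the same order at 9775, 10612 and 6328 TPM. In whole tissue, fewer cells of a type and less RNA per cell cannot be told apart, and the part of either cell type in these levels was not tested.

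**Figure D3:**
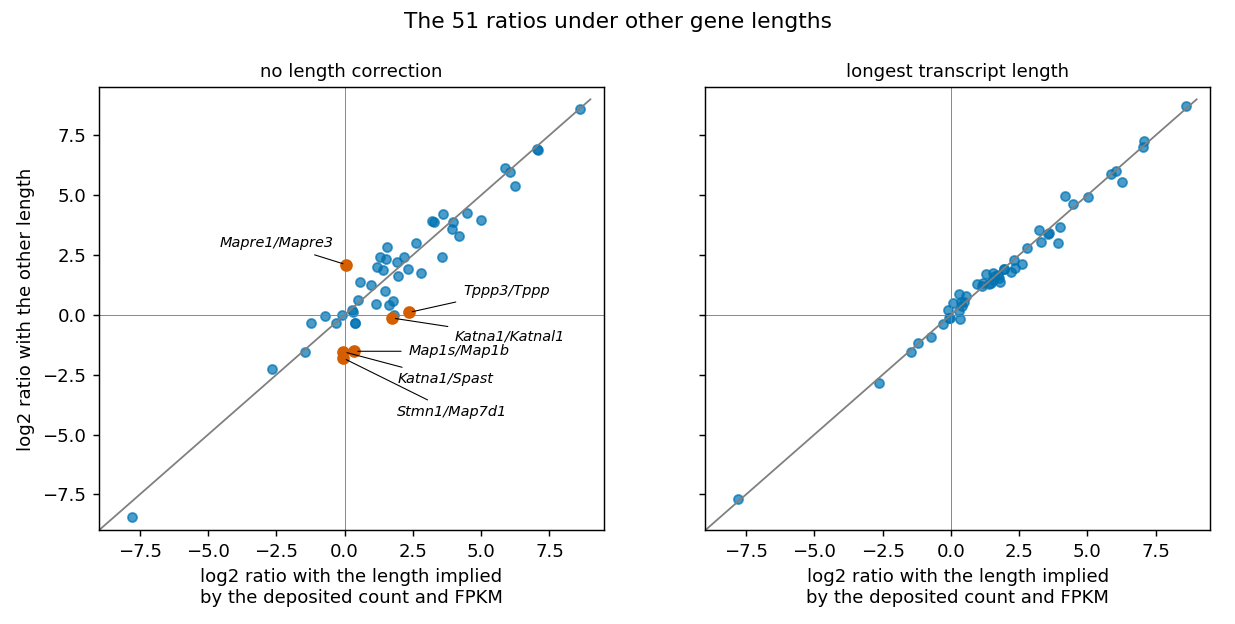
Log2 ratio of each of the 51 pairs with no length correction (left) and with the longest annotated transcript length (right), against the ratio with the length implied by the deposited count and FPKM, with the diagonal marking equal values. Labelled pairs, chosen after their values were seen, such as Tppp3 over Tppp at 2.35 against 0.10, lie far from the diagonal only in the left panel. Pairs without a label shifted in the right panel too. Map6 over Map6d1 was 3.93 against 3.01 there, and Stmn1 over Stmn2 was 4.18 against 4.96.

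How a level depended on length could be read off the same pairs. Without length correction 44 of the 51 pairs passed, and 3 pairs (Map1s and Map1b, Map7d1 and Map4, Eml3 and Eml4) passed in the opposite direction. With longest transcript lengths 46 passed, none of them in the opposite direction. The implied length ran from 0.503 to 1.11 of the longest annotated transcript of each gene, and for 14 of the 59 genes it was under 0.8 of it. Mtus2 is the gene at 0.503, with an implied length of 3796 bases and a longest transcript of 7543.

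Differences between hearts were tested for each gene against genes of like abundance, by edgeR's goodness of fit at the trended dispersion, adjusted over all genes with 1 CPM in at least 1 heart. Of 13653 genes tested, 249 passed an adjusted p of 0.05, which is 1.82%. Of the 55 members tested, 1 passed, also 1.82%, so the share among these genes equalled that of the table. At an unadjusted p below 0.05, 1 member of 55 stood against 779 genes (5.71%). The median CV was 8.14% over the detected members and 8.45% over all detected genes.

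The gene that passed was Mapt. It had 335, 619 and 940 counts, or 6.43, 11.3 and 17.1 TPM, with the lowest level in heart 1 and the highest in heart 3, 2.66-fold apart in CPM. Its edgeR adjusted p was 3.41e-05 and ranged from 2.21e-06 to 0.136 over 7 alternatives. The call was lost without heart 1 (0.062) and without heart 3 (0.136) and held without heart 2 (0.000538). No exon of Mapt overlaps a gene on the opposite strand in GENCODE M21, and the deposited position is chr11:104231273-104332415.

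Beside Mapt, 6 neuron markers, 4 of them detected, summed to 16.7, 14.4 and 18.8 TPM in hearts 1, 2 and 3, and none passed the test of variation. Schwann cell markers, 4 of 5 detected, summed to 38, 12.5 and 22.5 TPM. Smooth muscle and pericyte markers, 5 of 5 detected and 1 past the test, summed to 721, 1295 and 1561 TPM, and skeletal muscle markers, 2 of 5 detected, 1 past the test and Ryr1 at 0 in at least 1 heart, to 26.9, 77.3 and 132 TPM. These 2 sums had the same order of hearts as Mapt, but not all of their genes did. Rgs5 and Pdgfrb were highest in heart 2, at 267, 444 and 433 TPM and at 63.7, 76.6 and 71.7 TPM, as was Myh8, and Actn3, not detected, stood at 0.743, 0.66 and 0.174 TPM. Most of the skeletal muscle sum was the actin gene Acta1, at 24.7, 74.2 and 130 TPM. The actin gene of the smooth muscle list, Acta2, stood at 303, 670 and 918 TPM. Acta1 and Acta2 both passed (edgeR adjusted p = 2.42e-16 and 8.76e-09). Acta1 and Acta2 were chosen after their values were seen, and the part of these markers in the level of Mapt was not tested. In all, 9 detected members had their lowest TPM in heart 1 and their highest in heart 3: Mapt, Clip1, Dclk2, Katna1, Map1a, Map2, Map6, Map7d1 and Tubgcp5. Of these, Mapt alone passed (edgeR adjusted p = 1 for each of the others). Other members had the reverse order, among them Mtus2, Clasp1, Eml2, Map1s, Map7, Map7d3, Fign and Camsap1. The share of all detected genes with either order is not given here, so the count shows no trend particular to these members.

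**Figure D4:**
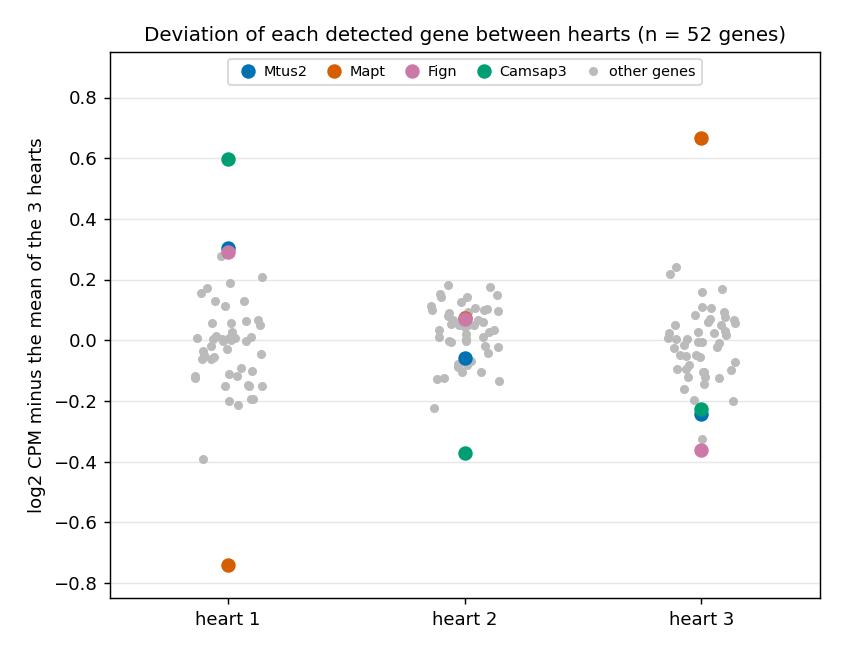
Log2 CPM of each of the 52 detected genes in each heart, minus that gene's mean over the 3 hearts, with 4 genes of high variation in colour that were chosen after their values were seen. Mapt lies lowest of all in heart 1 and highest of all in heart 3, and Camsap3 lies highest in heart 1.

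Of the detected members, 17 had their highest CPM in heart 1, 22 in heart 2 and 13 in heart 3 (32.7%, 42.3% and 25%), against 44.1%, 28.3% and 27.7% of all detected genes. These shares were not tested against each other. Mtus2 and Fign were highest in heart 1 and lowest in heart 3, Fign at 327, 294 and 220 counts. Beside them, 4 mesothelial markers, all detected and 2 past the test (Krt19 and Msln), summed to 180, 121 and 97 TPM, with Wt1 in the other order at 15.2, 16.9 and 17.6 TPM. Ciliated airway markers, 0 of 5 detected in every heart, 2 past the test (Dnah5 and Foxj1) and Dnah5 at 0 in at least 1 heart, summed to 9.23, 3.16 and 3.69 TPM. Their part was not tested.

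Partners of these genes were taken from 5 lists of 60 genes, of which 58 were in the table. Of the 58, 53 were detected, where 71.8% of all genes were. Of 54 tested, 0 passed the test of variation by edgeR's goodness of fit, against 1.82% of all genes tested. At an unadjusted p below 0.05 there were 2 of the 54, against 5.71% of all genes tested. The 2, Kif2c and Gas2l3, were named after their values were seen and were both highest in heart 2. Kif2c, a depolymerising kinesin of dividing cells, had 9.68, 12.5 and 6.73 TPM and Gas2l3 4.93, 7.32 and 4.41 TPM, in the order of the proliferation markers above.

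Among nucleation partners, all but 1 of 19 were detected. Pde4dip, a centrosome and Golgi anchor of nucleation, was the highest at 287 ± 17.7 TPM, above every one of the 59 genes. Tubg1, gamma-tubulin itself, had 52.5 ± 2.01 TPM and the augmin subunit Haus8 35.4 ± 6.41 TPM, while the second gamma-tubulin gene, Tubg2, fell under the minimum at 1.06, 2.24 and 2.32 TPM. Tubg1 lay above both core ring proteins, Tubgcp2 and Tubgcp3, and below Mzt1 in mean TPM.

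All 12 plus-end partners were detected, led by the dynein regulator Pafah1b1 at 102 ± 8.49 TPM, the dynactin subunit Dctn1 at 85.7 ± 5.44 TPM and Tacc2, of the family that binds the polymerase, at 76.6 ± 7.61 TPM. In the list of severing partners and depolymerising kinesins, Katnbl1 had 12.4 ± 0.677 TPM. The depolymerising kinesin Kif2a had 30.9 ± 2.55 TPM, above the mean level of each of the 6 severing ATPases. No test was run between these genes.

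Other binders were led by Ccser2 at 65.3 ± 8.23 TPM, the spindle crosslinker Prc1 at 44.6 ± 7.2 TPM and the actin-microtubule linker Gas2l1 at 23.2 ± 0.676 TPM. Of the kinases that phosphorylate microtubule-binding proteins, 8 of 9 were detected. The highest were Gsk3a at 116 ± 5.45 TPM, Mark3 at 54.4 ± 2.99 TPM and Mark2 at 35.4 ± 3.81 TPM, against 11.6 ± 5.36 TPM for Mapt, their best known substrate.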

How the data were processed

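Total RNA of 3 hearts was sequenced, per the labels' protocols. The deposited table holds an expected count of reads and an FPKM per gene and heart, both made by the authors and named so per the file headers. Counts are whole in 87.5% to 87.6% of genes per heart (within 0.005), and 9 of the 59 genes have fractional counts, which can arise where reads are divided between genes or transcripts. HISAT and GRCm38.p6 stand in the submitters' processing notes. Which other tools, annotation and strand handling were used is not given in the sources used here. One line with no gene and 2 columns of the authors' means were not used.

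TPM is the deposited FPKM rescaled to 1000000 per heart, and CPM the count per 1000000. For pairs of genes, rounded expected counts were fitted in edgeR 4.0.16 (with limma 3.58.1 under R 4.3.3), with an offset of TMM-scaled library size by the length that count and FPKM imply. The heart was a block, and the two-sided quasi-likelihood test was adjusted by Benjamini-Hochberg. Variation between hearts used edgeR's goodness of fit over all genes. DESeq2 1.42.0 was an alternative. Both tests were also run on simulated counts of independent genes with a fixed spread. The simulated pairs had equal lengths and no low counts. That run therefore does not bear on shared genes, uncertain lengths or pairs with few counts. Chi-square per degree of freedom between hearts was 14.6, 23.7 and 9.7, so the libraries are distinct. The labels name no batch.

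Members and lists were chosen with earlier results of these data known. The text names every member, with values per heart for the highest and lowest of each family, those not detected and those past the test of variation, and the 3 highest genes of each partner list, except 1 that is not reported here. Promoters are shown in place of protein sequences, for genes chosen after their levels were seen. Lengths and exon overlaps come from GENCODE M21. Pairs of genes share hearts and, in part, genes, and are not independent.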

Additional observations from a re-analysis of the deposited data

How the results depend on the processing

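Of 51 gene pairs, 46 passed as reported, and 44 with no length correction, 46 with longest transcript lengths, 46 with DESeq2 size factors, 47 with the DESeq2 Wald test, 47 without the replicate block, 46 with counts rounded down, 42 to 44 without 1 heart and 39 with each pair's own spread, which was added after the data were seen. The hearts form 1 group, so the block pairs genes within a heart, not samples across groups. Pairs that changed direction did so mostly with length. With no length correction the log2 ratio of Eml3 over Eml4 was -0.34, of Katna1 over Katnal1 -0.13, of Map1s over Map1b -1.52, of Map7d1 over Map4 -0.32 and of Mtus1 over Mtus2 0.01. With longest transcripts Map1s over Map1b was -0.17 and Mtus1 over Mtus2 0.22. Without 1 heart, Mtus1 over Mtus2 ran from -0.20 to 0.05 (positive without heart 1), Katna1 over Spast from -0.10 to 0.01 (positive without heart 2) and Stmn1 over Map7d1 0.10 (heart 3).

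Shares of the summed level with no length correction were 50.3% (structural), 38.5% (plus end), 6.69% (minus end) and 4.52% (severing and destabilising), and with longest transcripts the last was 13.9%. Genes past the test of variation numbered 114 to 151 without 1 heart, and members 0 to 1: 0 without heart 1 or heart 3, where 4 and 1 members had an edgeR unadjusted p below 0.05. With 2 hearts left, fewer samples enter the fit. Between 52 and 56 members were detected under the other minimums and with 1 heart left out. Depth limits most the lowest genes, Dcx with 2 to 5 counts per heart and Katnal2 with 1 to 7, while 4 of the 7 genes not detected pass at 0.5 CPM.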
